A study of Mus musculus with 4 samples.

Results

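Integrins are receptors of paired alpha and beta chains that hold cells to the matrix outside them, and laminins are three-chain proteins of the basement membrane, the sheet on which epithelia stand. The genes described here are the 37 whose symbols name an integrin alpha chain, an integrin beta chain or a laminin alpha, beta or gamma chain, 26 integrins and 11 laminins, of 24453 genes in the count files. They were chosen by symbol and not by their values. RNA was measured in EpCAM-sorted cells of the tongue (lingual) epithelium of mouse embryos at embryonic day 16, with the rear of the tongue, which bears the circumvallate papilla, cut away. The libraries labelled 2KO, 2 in number, carry a Ring1a-null genotype with a floxed Ring1b allele and a Krt14-driven Cre, and the 2 control libraries are labelled only as control, so which of these alleles they carry is not stated. Krt14 is a keratin gene of basal keratinocytes, so the Cre is aimed at the layer that touches the basement membrane. Ring1a and Ring1b are catalytic subunits of Polycomb repressive complex 1, and the comparison asks what the complex does in this epithelium.

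In stratified epithelium the integrin of chains alpha-6 and beta-4 anchors basal keratinocytes through hemidesmosomes, and the integrin of alpha-3 and beta-1 sits beside it in focal contacts. Both bind the laminin that holds the alpha-3 and beta-3 chains (Lama3 and Lamb3), which epithelial cells secrete. Laminins with the alpha-5 chain, joined to beta-1 or beta-2 and to gamma-1, are shared by many basement membranes. Other integrin chains are characteristic of leukocytes (Itgal, Itgam, Itgax, Itgb2, Itgb7), of platelets (Itga2b, Itgb3) or of mesenchyme, muscle and vessels (Itga1, Itga7, Itga8, Itga10, Itga11). Itga5 is listed here with the chains of mesenchyme, muscle and vessels but need not be particular to those cells.

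The libraries held 18039767 to 20624055 counts, save control replicate 2 with 16256569. Rn45s, the ribosomal RNA precursor, made up 22.9% and 20.2% of 2KO-labelled libraries and 16.7% and 15.3% of control libraries. Neither targeted gene was lower under the 2KO label. Ring1 (Ring1a) stood at 16.8 and 15.0 CPM in 2KO-labelled libraries and 9.02 and 8.57 CPM in control (edgeR adjusted p = 0.101), where CPM is a gene's count scaled to a common library size with TMM factors. Rnf2 (Ring1b) stood at 62.9 and 62.4 CPM in 2KO-labelled libraries and 34.0 and 51.3 CPM in control (adjusted p = 0.126). Gene-level counts cannot reveal the loss of single exons and the labels do not name the exons removed, so the genotype is unchecked and every direction below goes by the labels. Basal keratinocyte markers were abundant everywhere, though 2 of 6 (Krt5 and Krt14) fell, with Krt5 at 4398 and 4543 CPM in 2KO-labelled libraries and 6768 and 5486 CPM in control. Of the 7 suprabasal markers listed, 5 fell and none rose. Their summed CPM was 789.8 and 332.5 in 2KO-labelled libraries and 2879 and 1935 in control. The share called in either direction was 33.3% of basal and 71.4% of suprabasal markers, beside 11.9% of all genes tested. In bulk RNA, fewer cells of a type and less RNA per cell cannot be told apart.

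Of the 37 chains, 33 passed the filter on low counts and were tested. Among these 3 rose, 2 fell and 28 did not pass the test (edgeR quasi-likelihood test, Benjamini-Hochberg adjustment over all 15336 genes tested, threshold 0.05). That is 15.2% of the tested chains called, beside 11.9% of all genes tested (7.00% of them called higher and 4.92% called lower). Itga5, Lama1 and Lamb1 rose, and Lamb3 was among those that fell. The groups did not overlap for 22 tested chains, 13 with 2KO-labelled libraries on top and 9 with control on top, beside 57.7% of all genes tested. Tested chains had a median log2 fold change of 0.08, beside 0.01 over all genes tested. Both counts changed when a library was left out: the chains called higher numbered 8 without control replicate 1 and 1 without 2KO replicate 2, and those called lower numbered 0 without 2KO replicate 1 and 4 without control replicate 2. With each library's counts corrected for the GC content and length of transcripts, 1 chain was higher and 5 were lower.

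**Figure D1:**
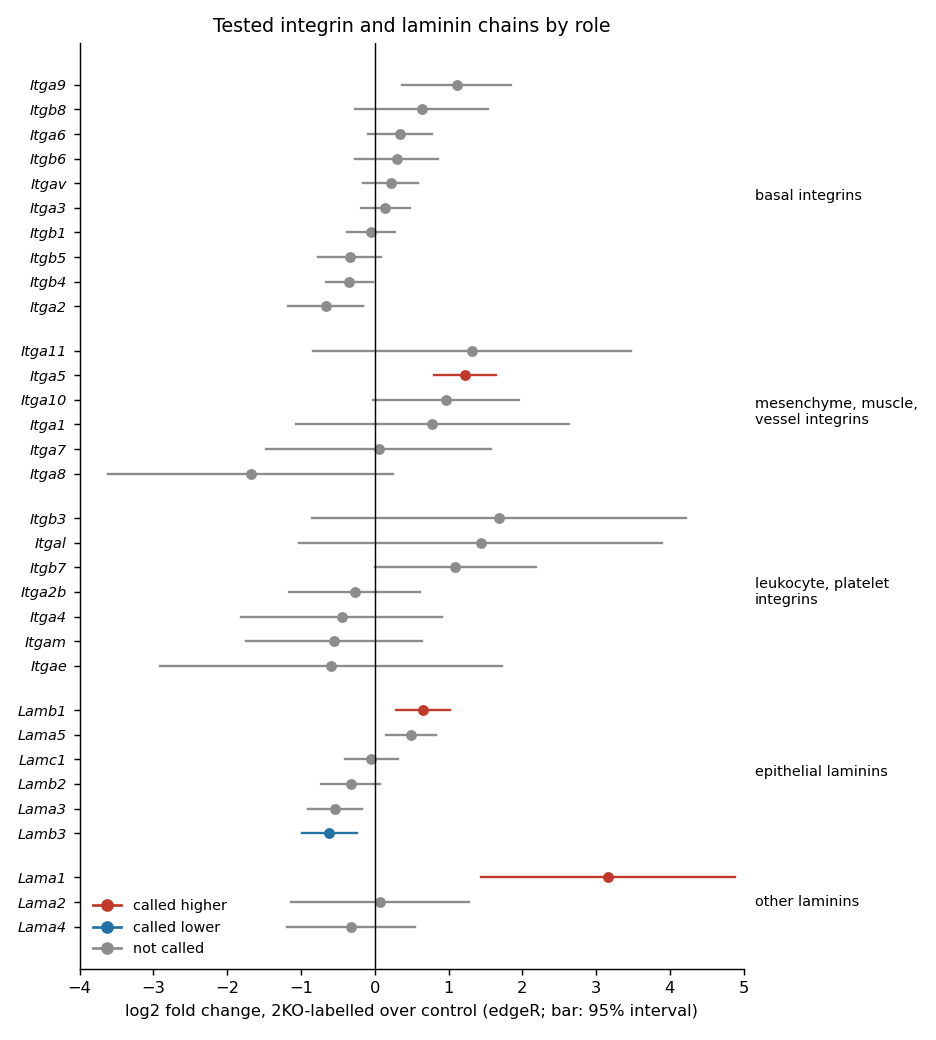
Log2 fold change of tested chains, 2KO-labelled over control, grouped by role, with 95% intervals from edgeR (2 libraries a group). Itga5, Lama1 and Lamb1, called higher, and Lamb3, called lower, are coloured, and all 10 basal integrin chains are grey.

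Integrin message in these cells came mainly from the 10 chains listed here as those of basal keratinocytes. That list was drawn up with earlier results of these data known. Its chains need not be particular to basal keratinocytes, so their share does not tell which cells made the message. Levels of different genes are compared here as deposited FPKM, which divides by transcript length. The 10 basal chains held 94.0% and 94.6% of the summed integrin FPKM in 2KO-labelled libraries and 96.7% and 96.8% in control. Itgb4 led in both groups, at 109 ± 2.50 FPKM in 2KO-labelled libraries and 144 ± 11.3 FPKM in control (SD, n = 2 each, as for all means). Itga6 stood at 85.1 ± 13.8 FPKM in 2KO-labelled libraries and 60.2 ± 18.7 FPKM in control, Itgb1 at 73.1 ± 5.79 and 66.6 ± 9.13 FPKM, and Itga3 at 61.3 ± 2.59 and 56.5 ± 0.226 FPKM in the same order. Among the chains below Itgb4, Itga6 lay above Itgb1 and Itga3 within each 2KO-labelled library, though the ranges of Itga6 and Itgb1 overlapped. Within control replicate 1 Itga6 lay above both, and within control replicate 2 below both, so its place in control is not settled. Itgb1 lay above Itga3 in every library of both groups. The lowest basal chain was Itga9, at 2.81 ± 0.377 FPKM in 2KO-labelled libraries and 1.22 ± 0.193 FPKM in control.

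None of the 10 basal integrin chains passed the test. At an unadjusted p below 0.05 were 3 of them (Itga9, Itga2 and Itgb4), beside 27.7% of all genes tested. The hemidesmosome chain Itgb4 was at 485 and 541 CPM in 2KO-labelled libraries and at 708 and 594 CPM in control (log2 fold change -0.34, standard error 0.147, adjusted p = 0.155). Its partner Itga6 was at 451 and 563 CPM in 2KO-labelled libraries and at 480.5 and 319 CPM in control (log2 fold change 0.34, standard error 0.197, adjusted p = 0.292). Fold changes of these partners were thus opposite in sign, without overlap between groups for Itgb4 and with overlap for Itga6. With the GC content and length correction Itgb4 was called lower (-0.83, adjusted p = 0.00297, in a range of 0.00297 to 0.512 over 16 alternatives), and leaving out control replicate 1 made Itga6 pass as higher (0.69, adjusted p = 0.00460, range 0.00460 to 0.824).

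Itgb1, the beta chain that most alpha chains of these cells pair with, stood at 302 and 334 CPM in 2KO-labelled libraries and 353 and 305 CPM in control, and the groups overlapped (95% interval of the log2 fold change -0.38 to 0.28). Itga3 stood at 214 and 241 CPM in 2KO-labelled libraries and 211 and 201 CPM in control (95% interval -0.19 to 0.47). Itga2, the alpha chain of the keratinocyte collagen receptor, was at 21.7 and 23.8 CPM in 2KO-labelled libraries and 39.8 and 32.4 CPM in control (log2 fold change -0.66, standard error 0.230, adjusted p = 0.0872). It was called lower without control replicate 2 (-0.80, adjusted p = 0.0453, range 0.0453 to 0.348). Itga9, whose product binds tenascin-C, was at 13.9 and 20.9 CPM in 2KO-labelled libraries and 8.48 and 7.63 CPM in control (log2 fold change 1.11, standard error 0.334, adjusted p = 0.0537). Itga9 crossed the threshold in 6 of 16 alternatives, among them without control replicate 1 (adjusted p = 0.0262) and without 2KO replicate 1 (0.0379), in a range of 0.0199 to 0.424.

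The alpha-v chain Itgav, which pairs with beta-5, beta-6 and beta-8 to bind fibronectin, vitronectin and latent TGF-beta, was at 140.3 and 125 CPM in 2KO-labelled libraries and 126 and 102 CPM in control. Its partner Itgb5 was at 48.4 and 59.3 CPM in 2KO-labelled libraries and 62.1 and 74.1 CPM in control (log2 fold change -0.34, adjusted p = 0.291). Itgb6 was at 20.9 and 21.3 CPM in 2KO-labelled libraries and 18.2 and 16.1 CPM in control (0.30, adjusted p = 0.4998). Itgb8 was at 10.6 and 8.76 CPM in 2KO-labelled libraries and 5.24 and 7.22 CPM in control (0.64, adjusted p = 0.348). For these 3 beta chains the groups did not overlap, as was so for 57.7% of all genes tested. Itgb5 was lower and Itgb6 and Itgb8 were higher in the 2KO-labelled libraries, and none of the differences passed.

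**Figure D2:**
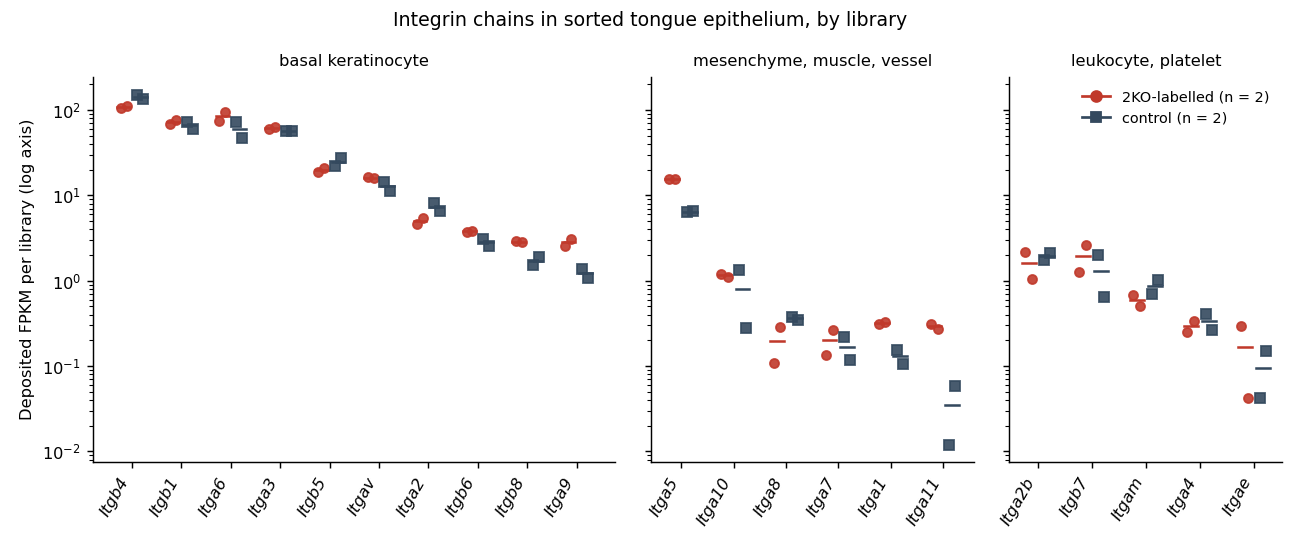
Deposited FPKM of integrin chains in each library on a log axis, 2KO-labelled left of control, with the mean of each group as a bar. Itgb4 is highest in both groups and Itga5 stands above the other chains of its panel; Itgal, Itgb3, Itgax, Itgad and Itgb2, listed at 0 in at least 1 library, are not drawn.

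Itga5, the alpha chain of the main fibronectin receptor (chromosome 15, 103344286 to 103366763, mm10), was the integrin chain that rose. It was at 64.5 and 71.2 CPM in 2KO-labelled libraries and at 28.6 and 29.4 CPM in control (log2 fold change 1.23, standard error 0.191, 95% interval 0.80 to 1.65, adjusted p = 0.00242). Both 2KO-labelled libraries lay at more than 2 times the level of either control library. The call held in 15 of 16 alternatives and ended on log2(FPKM + 1) with no filter on low values (adjusted p = 0.0909, range 1.38e-06 to 0.0909), where no gene of the table passed. Per length Itga5 stood at 15.5 ± 0.0257 FPKM in 2KO-labelled libraries and 6.41 ± 0.108 FPKM in control. In both control libraries Itga5 was below Itgav. Against Itga2 it was lower in control replicate 1 (6.33 against 8.06 FPKM) and nearly equal in control replicate 2 (6.48 against 6.50 FPKM). In both 2KO-labelled libraries Itga5 was above Itga2 and still below Itgav. It lay above the basal-listed Itga9, Itgb6 and Itgb8 in every library. Itga5 held most of the summed FPKM of the mesenchyme, muscle and vessel list. That sum was 17.5 and 17.8 FPKM in 2KO-labelled libraries and 8.42 and 7.40 FPKM in control. The share of basal chains given above thus depends on where Itga5 is placed.

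The other chains of mesenchyme, muscle and vessels were low and none of their differences passed. Itga10, a collagen receptor chain of cartilage, was at 14.2 and 13.1 CPM in 2KO-labelled libraries and 10.1 and 3.76 CPM in control (log2 fold change 0.97, adjusted p = 0.190). Leaving out control replicate 1 made it pass (1.88, adjusted p = 0.00336, range 0.00336 to 0.647), and 33.5% of its exon length overlaps another annotated gene. Itga11 was at 1.64 and 1.93 CPM in 2KO-labelled libraries and 0.441 and 0.998 CPM in control, and Itga1 at 2.15 and 2.18 CPM against 1.23 and 1.29 CPM. Itga8, the nephronectin receptor chain, was at 0.454 and 1.48 CPM in 2KO-labelled libraries and 2.65 and 3.64 CPM in control (log2 fold change -1.68, adjusted p = 0.243). Itga7, the laminin receptor chain of muscle, overlapped between groups, at 3.23 and 2.42 CPM in 2KO-labelled libraries and 3.38 and 2.05 CPM in control.

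Leukocyte and platelet chains were low per length, with means of at most 1.93 FPKM (Itgb7) in 2KO-labelled libraries and 1.95 FPKM (Itga2b) in control, and some had no counts. Itgb2, the beta chain shared by Itgal, Itgam, Itgax and Itgad, had 0 counts in all 4 libraries, as did Itgad, which allows up to 0.170 and 0.148 CPM in 2KO-labelled libraries and 0.147 and 0.176 CPM in control. These limits cover counting error only, since amplified reads are not independent molecules. Itgax had 0 counts in the 2KO-labelled libraries and 8 and 1 in control. Of 7 tested chains of this group none passed, and their log2 fold changes lay between -0.59 (Itgae) and 1.68 (Itgb3). Itgb7 was at 9.07 and 11.4 CPM in 2KO-labelled libraries and 6.81 and 2.76 CPM in control (adjusted p = 0.178). Leaving out control replicate 1 made it pass as higher (1.91, adjusted p = 0.0115, range 0.0115 to 0.673). Itga2b stood at 10.6 and 5.94 CPM in 2KO-labelled libraries and 10.1 and 9.86 CPM in control. Itgam, at 4.99 and 2.87 CPM in 2KO-labelled libraries and 6.57 and 4.99 CPM in control, shares 68.7% of its exon length with another annotated gene, so its reads are uncertain.

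Laminin message came almost entirely from 7 chains found in epithelial basement membrane. They held 99.2% and 98.5% of the summed laminin FPKM in 2KO-labelled libraries and 99.2% and 98.9% in control. Of these 7, Lama5, Lamb1, Lamb2 and Lamc1 are shared by many basement membranes, so the share does not tell which cells made the message. Lamb1 rose and Lamb3 fell among these 7, which had a median log2 fold change of -0.33 beside 0.01 over all genes tested. Lamb3 (chromosome 1, 193207699 to 193343878) was at 132 and 142 CPM in 2KO-labelled libraries and 237 and 183 CPM in control (log2 fold change -0.62, standard error 0.170, adjusted p = 0.0394). Each 2KO-labelled library lay below each control library. Lama3 (chromosome 18, 12333819 to 12583013) was at 298 and 276 CPM in 2KO-labelled libraries and 477 and 356 CPM in control, a log2 fold change of -0.54 that did not pass (standard error 0.167, adjusted p = 0.0610).

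The calls on Lamb3 and Lama3 moved with single libraries. The Lamb3 call ended without control replicate 1 (-0.40, adjusted p = 0.138), without 2KO replicate 1 (-0.56, adjusted p = 0.140) and without 2KO replicate 2 (-0.68, adjusted p = 0.0583), in a range of 0.00209 to 0.154. Lama3 was called lower without control replicate 2 (-0.72, adjusted p = 0.00215, range 0.00215 to 0.270), and without control replicate 1 its log2 fold change was -0.29. With the GC content and length correction both were called lower, at -0.99 for Lama3 and -0.86 for Lamb3. Beside these chains, basal keratinocyte markers summed to 8803 and 9336 CPM in 2KO-labelled libraries and 13020.1 and 10833 CPM in control. Of the 6 markers, 3 had a negative log2 fold change (Krt5, Krt14 and Krt15) and 3 a positive one. The positive ones were Trp63 (0.0012), Epcam (0.17) and Cdh3 (0.34), each with overlap between groups. The part of basal keratinocytes in the lower laminin chains was not tested.

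Lamb1, the beta chain of alpha-5 laminins (chromosome 12, 31265234 to 31329644), rose. It was at 154 and 186 CPM in 2KO-labelled libraries and at 105 and 111 CPM in control (log2 fold change 0.65, standard error 0.164, 95% interval 0.29 to 1.02, adjusted p = 0.0270). The call ended without 2KO replicate 2 (0.50, adjusted p = 0.216) and with the GC content and length correction (0.48, adjusted p = 0.0766), in a range of 0.00374 to 0.216. Lama5 (chromosome 2, 180176373 to 180225859) was at 419 and 523 CPM in 2KO-labelled libraries and 340.3 and 330.2 CPM in control (log2 fold change 0.49, standard error 0.153, adjusted p = 0.0612). It was called higher in 6 of 16 alternatives, among them without control replicate 1 (adjusted p = 0.0297) and without 2KO replicate 1 (0.0324), but its sign turned with the GC content and length correction (-0.29, adjusted p = 0.220, range 0.0215 to 0.437). Lamc1, the gamma chain of alpha-5 laminins, overlapped between groups, at 389.9 and 465 CPM in 2KO-labelled libraries and 494 and 389 CPM in control (95% interval of the log2 fold change -0.41 to 0.31). Lamb2 was at 64.5 and 64.1 CPM in 2KO-labelled libraries and 89.3 and 72.2 CPM in control (log2 fold change -0.33, adjusted p = 0.272). It was called lower in 1 of 16 alternatives, the GC content and length correction (adjusted p = 0.0231).

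**Figure D3:**
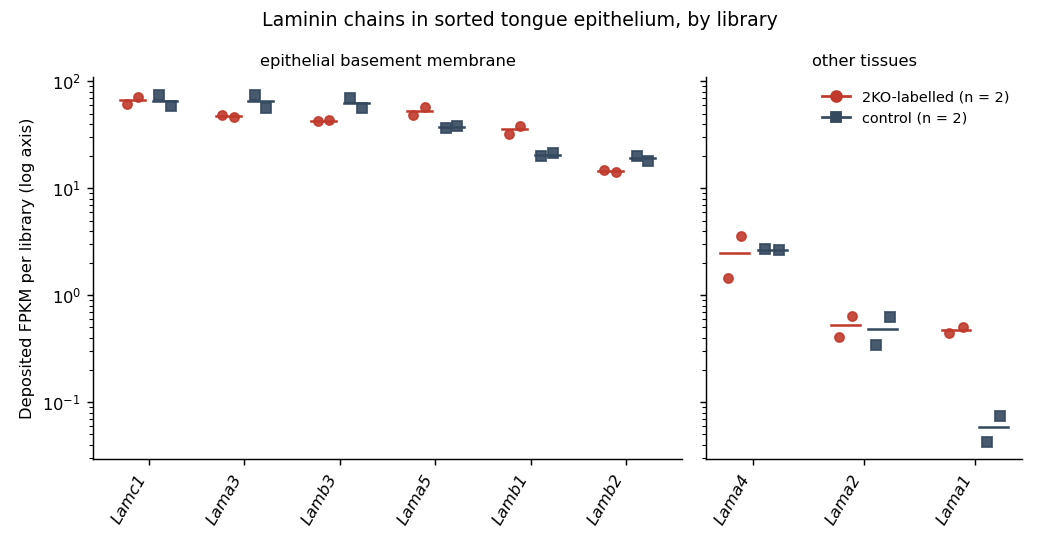
Deposited FPKM of laminin chains in each library on a log axis, 2KO-labelled left of control, with group means as bars. Lama3 and Lamb3 lie lower and Lama5 and Lamb1 higher in the 2KO-labelled libraries, and Lama1 is the chain of other tissues whose groups are far apart; Lamc3, listed at 0 in a library of each group, is not drawn.

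Ratios within a library do not depend on scaling between libraries, and they set chains of the same kind against each other. These ratios were chosen after the values were seen, so they are given as a description with no test. Lama5 over Lama3 was 1.01 and 1.25 in 2KO-labelled libraries and 0.486 and 0.683 in control. Lamb1 over Lamb3 was 0.766 and 0.889 in 2KO-labelled libraries and 0.284 and 0.377 in control. Both ratios were higher in each 2KO-labelled library than in either control library. Itga6 over Itgb4 was likewise higher, at 0.705 and 0.858 in 2KO-labelled libraries and 0.484 and 0.346 in control. Over 16 alternative fits, the GC content and length correction included, the log2 fold change of Lama5 exceeded that of Lama3 by 0.70 to 1.23. The same difference was 1.03 to 1.48 for Lamb1 over Lamb3 and 0.54 to 1.15 for Itga6 over Itgb4. Scaling between libraries cancels in these differences, so alternatives that changed only the scaling were bound to repeat the main fit. For Lama5 and Lama3 the difference was 1.03 in the main fit, 1.03 with RLE scaling and 1.02 with upper-quartile scaling. The filtered and unfiltered fits on log2(FPKM + 1) gave the same value (0.95). Such repeats are no separate support.

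**Figure D4:**
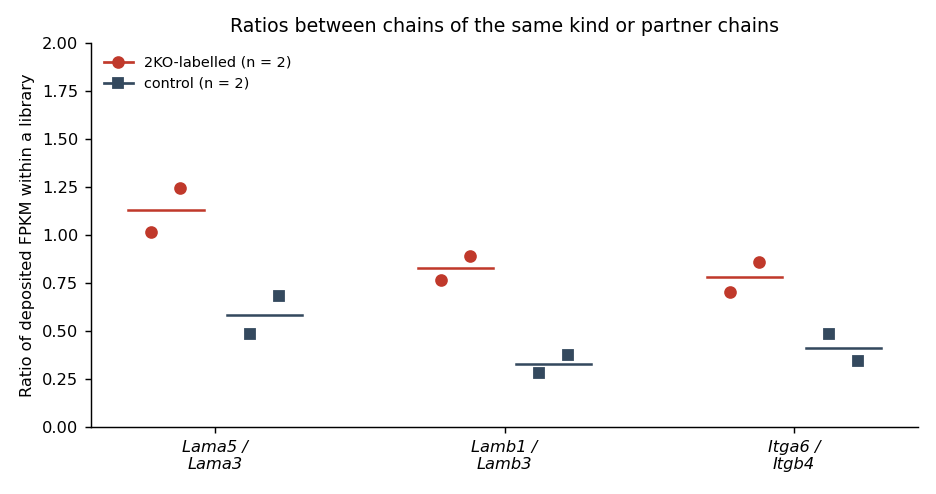
Ratio of deposited FPKM between the named chains within each library, 2KO-labelled left of control, with group means as bars. In all 3 ratios both 2KO-labelled libraries lie above both control libraries.

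Of the laminin chains of other tissues, Lama1 rose. Lama1, the alpha chain of early embryonic basement membranes (chromosome 17, 67697259 to 67822647), had 85 and 103 counts in 2KO-labelled libraries and 7 and 13 in control, or 4.82 and 5.10 CPM against 0.343 and 0.763 CPM. Its log2 fold change was 3.16 (standard error 0.785, 95% interval 1.43 to 4.89, adjusted p = 0.0258). Per length it stayed low, at 0.474 ± 0.0414 FPKM in 2KO-labelled libraries and 0.0584 ± 0.0225 FPKM in control. The call ended without 2KO replicate 1 (adjusted p = 0.0619), without 2KO replicate 2 (0.0974) and with the GC content and length correction (0.0507), in a range of 0.00175 to 0.115. Lama2, the alpha chain of muscle and nerve, was at 4.31 and 6.78 CPM in 2KO-labelled libraries and 3.38 and 7.16 CPM in control, and Lama4, that of vessels, at 7.66 and 20.1 CPM against 17.6 and 17.1 CPM. Both overlapped between groups. Lamc3 had 3 and 0 counts in 2KO-labelled libraries and 0 and 1 in control.

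The promoters of called chains are shown because Polycomb complexes are known to act at promoters rich in CG. RefSeq entries (GRCm38.p6, the same build as mm10) matched 23 of the 37 chains, with 26 start sites, and among called chains Itga5, Lamb1 and Lamb3 had one while Lama1 did not. The 250 bases before each start are printed in the direction of the gene, with each CG in capitals. Itga5 lies at chr15:103366792-103367041 on the minus strand, Lamb1 at chr12:31265043-31265292 on the plus strand, and the upstream one of the Lamb3 starts at chr1:193301744-193301993 on the plus strand. Both Lamb3 windows lie inside the span given for that gene above, which begins at 193207699. The bases before that first position were not examined.
Itga5: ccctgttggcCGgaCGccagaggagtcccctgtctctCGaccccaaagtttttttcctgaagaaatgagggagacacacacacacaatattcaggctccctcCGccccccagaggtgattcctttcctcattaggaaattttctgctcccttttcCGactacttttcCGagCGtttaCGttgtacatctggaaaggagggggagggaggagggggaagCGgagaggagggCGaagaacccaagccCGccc
Lamb1: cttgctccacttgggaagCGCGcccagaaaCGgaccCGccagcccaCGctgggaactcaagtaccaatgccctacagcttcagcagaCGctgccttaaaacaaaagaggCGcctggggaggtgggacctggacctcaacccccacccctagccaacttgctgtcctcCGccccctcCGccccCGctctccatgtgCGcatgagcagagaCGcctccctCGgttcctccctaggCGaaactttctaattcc
Lamb3: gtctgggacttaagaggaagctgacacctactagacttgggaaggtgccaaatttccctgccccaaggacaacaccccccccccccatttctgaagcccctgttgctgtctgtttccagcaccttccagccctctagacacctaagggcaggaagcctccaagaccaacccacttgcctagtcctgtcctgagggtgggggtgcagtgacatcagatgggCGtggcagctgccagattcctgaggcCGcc
The motif searched was CG, which reads the same on both strands. The window holds 11 CG before Itga5, 14 before Lamb1 and 2 before this Lamb3 start. At least as many stand in 35.6%, 29.4% and 81.2% of all 32851 such windows, which hold a median of 6, while 92.1% hold at least 1. Over the 26 windows of integrin and laminin chains the median was 10. Lama5 had 19 and Itgb1 had 21, so chains that did not pass the test also had CG-rich windows. The other start of Lamb3, a called chain, had 3. These are counts of letters in a window and show no binding.

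Other basement membrane genes moved in both directions. Of 20 tested genes of this list, 6 rose, 3 fell and 11 did not pass (45.0% called, beside 11.9% of all genes), with a median log2 fold change of 0.44. Frem2, which with Fras1 forms an epithelial anchoring complex of the embryonic basement membrane, fell to 373 and 429.7 CPM in 2KO-labelled libraries, against 1152 and 897 CPM in control (log2 fold change -1.35, adjusted p = 0.000491). Its relative Frem1 rose to 24.6 and 38.0 CPM in 2KO-labelled libraries, against 4.75 and 6.45 CPM in control (2.48, adjusted p = 0.000806), while Fras1 itself was at 316 and 293 CPM in 2KO-labelled libraries and 312 and 281 CPM in control. Nidogen-1 (Nid1), which links laminin with collagen IV, rose to 49.1 and 63.8 CPM in 2KO-labelled libraries, against 23.7 and 21.01 CPM in control (1.33, adjusted p = 0.00353).

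The chains of collagen IV moved in both directions. Col4a1 rose to 164 and 203 CPM in 2KO-labelled libraries, against 91.4 and 91.9 CPM in control (log2 fold change 1.00, adjusted p = 0.00369), and its partner Col4a2 rose as well (0.95, adjusted p = 0.0129). Col4a5 and Col4a6, which form another collagen IV network, fell (-0.55 and -0.71, adjusted p = 0.0413 and 0.0216). Smoc2, a matrix-associated calcium-binding protein, rose to 99.6 and 136 CPM in 2KO-labelled libraries, against 49.3 and 51.9 CPM in control (1.22, adjusted p = 0.00263). The proteoglycan perlecan (Hspg2) was also called higher (0.90, adjusted p = 0.00583). Col4a2, Hspg2, Col4a5 and Col4a6 were singled out after their values were seen. The GC content and length correction ended the calls of Hspg2 (0.04, adjusted p = 0.887, range 1.3e-06 to 0.887) and Col4a2 (0.41, adjusted p = 0.234, range 1.26e-05 to 0.234). Without 2KO replicate 1 and without 2KO replicate 2 the calls ended for Col4a5 (adjusted p = 0.193 and 0.139, range 0.0125 to 0.218) and Col4a6 (0.0713 and 0.0870, range 0.00296 to 0.168), and that of Col4a5 also without control replicate 1 (0.0801).

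**Figure D5:**
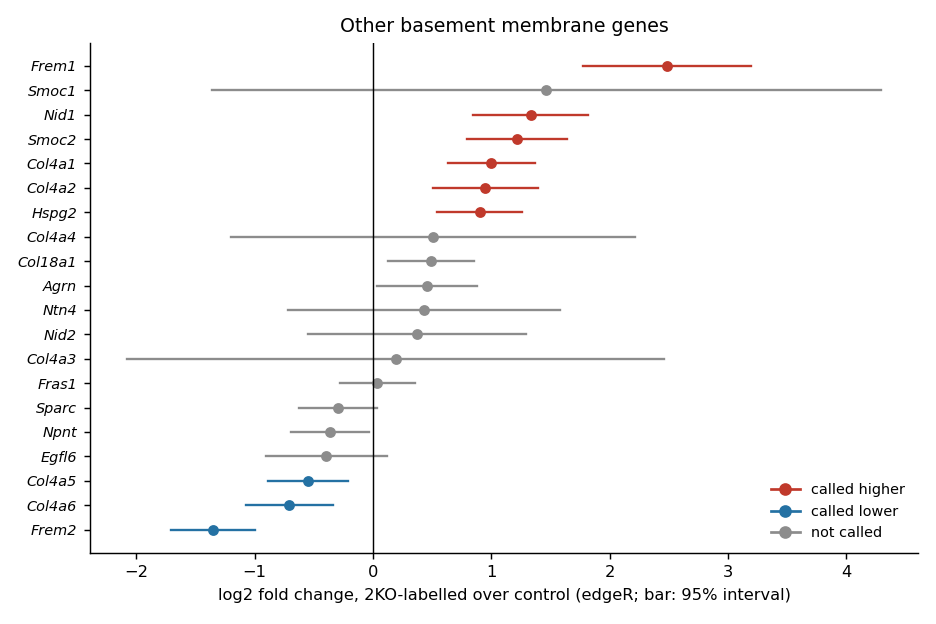
Log2 fold change of the 20 tested basement membrane genes, 2KO-labelled over control, with 95% intervals from edgeR (2 libraries a group). Frem1, Nid1, Smoc2, Col4a1, Col4a2 and Hspg2 were called higher, and Col4a5, Col4a6 and Frem2 lower.

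Partners of integrins at hemidesmosomes and inside the cell had 20.0% of 5 and 13.6% of 22 tested genes called, beside 11.9% of all genes tested. Of 5 hemidesmosome and anchoring fibril genes, Col7a1, the collagen of anchoring fibrils, fell to 155 and 184 CPM in 2KO-labelled libraries, against 369 and 213 CPM in control (log2 fold change -0.78, adjusted p = 0.0481). That call ended without control replicate 1 (-0.31, adjusted p = 0.258, range 1.04e-05 to 0.264) and under other scalings, among them upper-quartile scaling (-0.73, adjusted p = 0.0644). Plec, Dst, Col17a1 and Cd151 did not pass. Of 22 integrin adaptors 1 rose and 2 fell: paxillin (Pxn) was at 154.2 and 154.2 CPM in 2KO-labelled libraries and 92.9 and 61.1 CPM in control (1.00, adjusted p = 0.0101), and Kank1, which sits at the rim of focal adhesions, at 84.7 and 77.3 CPM against 207 and 200.5 CPM (-1.33, adjusted p = 0.000491). Ilk was also called lower (-0.75, adjusted p = 0.0297), but 89.7% of its exon length overlaps Rrp8 and Taf10 on the opposite strand. The Ilk call ended without control replicate 2, without 2KO replicate 1 and without 2KO replicate 2. Its adjusted p ranged from 0.00514 to 0.109 over 16 alternatives. Of 5 other laminin receptors (20.0% called), syndecan-1 (Sdc1) fell (-0.58, adjusted p = 0.0297) and 4 did not pass. The Sdc1 call ended without control replicate 1 (adjusted p = 0.0726), without 2KO replicate 1 (0.0573) and without 2KO replicate 2 (0.111), in a range of 0.00410 to 0.147.

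Among 15 tested genes listed here as integrin ligands, 4 rose and 1 fell (33.3% called, beside 11.9% of all genes tested). Tgfb2 was listed as a gene of the TGF-beta family, and whether its product binds integrins was not tested. Fibronectin (Fn1), the ligand of the receptor with the Itga5 chain, rose to 199.7 and 249 CPM in 2KO-labelled libraries, against 114 and 134 CPM in control (log2 fold change 0.86, standard error 0.171, adjusted p = 0.00962). With the GC content and length correction its call ended (0.51, adjusted p = 0.0752, range 3e-05 to 0.108). Icam1, a ligand of leukocyte integrins, rose to 219.97 and 269 CPM in 2KO-labelled libraries, against 130.4 and 97.3 CPM in control (1.10, adjusted p = 0.00387), and 11.7% of its exon length overlaps a gene on the other strand. Tgfb2, a TGF-beta ligand held latent in the matrix, rose (1.10, adjusted p = 0.0123), as did thrombospondin-1 (Thbs1; 0.74, adjusted p = 0.0344), and periostin (Postn) fell (-0.99, adjusted p = 0.0419). Without 2KO replicate 2 the calls of Tgfb2 (adjusted p = 0.0738, range 0.000320 to 0.148) and Thbs1 (0.305, range 0.000922 to 0.305) ended, and without 2KO replicate 1 that of Postn (0.270, range 0.00260 to 0.270).

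Markers of other cell types were measured in the same libraries. Itga5, Lamb1, Col4a1 and Fn1 are also expressed by vessels and mesenchyme. Of 10 endothelial markers none passed the test, 6 had both 2KO-labelled libraries above both control libraries (as had 4442 of all 15336 genes tested), and their sum was 48.5 and 72.2 CPM in 2KO-labelled libraries and 33.4 and 28.5 CPM in control, with Cdh5 at 12.5 and 29.7 CPM against 8.53 and 9.80 CPM and Pecam1 at 10.2 and 13.8 CPM against 6.81 and 2.41 CPM. Of 10 fibroblast and mesenchyme markers none passed, with a sum of 416 and 398 CPM in 2KO-labelled libraries and 320.3 and 394 CPM in control. Dcn led that list at 187 and 121 CPM in 2KO-labelled libraries and 124 and 117 CPM in control, and Col1a1 stood at 108 and 111 CPM against 63.2 and 116 CPM. The part of these cells in the higher Itga5, Lamb1, Lama1, Col4a1 and Fn1 was not tested.

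Of 10 leukocyte markers 6 were tested and Cd68 rose (16.7% called, beside 11.9% of all genes tested). Cd68 was at 47.2 and 39.0 CPM in 2KO-labelled libraries and 21.3 and 11.9 CPM in control. The list summed to 62.0 and 50.0 CPM in 2KO-labelled libraries and 27.45 and 21.7 CPM in control, most of it from Cd68. Other members differed in direction, with Lyz2 at 0 and 0.148 CPM in 2KO-labelled libraries and 1.57 and 1.06 CPM in control, and Csf1r at 5.05 and 3.86 CPM against 2.01 and 2.88 CPM. The pan-leukocyte gene Ptprc was at 0.170 and 0.148 CPM in 2KO-labelled libraries and 0.0490 and 0.587 CPM in control, beside the 0 counts of Itgb2. The 7 platelet markers summed to 4.48 and 6.68 CPM in 2KO-labelled libraries and 7.30 and 3.64 CPM in control. Of 10 skeletal muscle markers 9 were tested and none passed, but their sum was 57.0 and 60.2 CPM in 2KO-labelled libraries and 46.7 and 331 CPM in control, so control replicate 2 stood apart. Of the muscle-associated chains, that library was the higher control for Lama2 and the lower one for Itga7. Of 8 Schwann cell and neural markers Elavl3 rose and Tubb3 fell (25% called, beside 11.9% of all genes tested). Elavl3 had 119 and 70 counts in 2KO-labelled libraries and 14 and 1 in control. The 8 markers summed to 91.5 and 109 CPM in 2KO-labelled libraries and 153 and 93.9 CPM in control.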

How the data were processed

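RNA-seq libraries of EpCAM-sorted tongue epithelium (2 labelled 2KO, 2 control) were analysed from files the authors deposited. Per the labels' protocols, 15 ng of RNA was reverse transcribed and amplified, and 100-nucleotide reads were sequenced. The deposited per-library files hold raw whole-number read counts per gene symbol, and a deposited table of the authors holds FPKM per library. The genome build is mm10, and the tools listed are DESeq2 1.6.3, HTSeq 0.6.1, Cufflinks 2.2.1 and TopHat2 2.0.13, per the submitters' processing notes. No source used here gives the annotation, the strandedness of counting or the tool behind each value, so reads of overlapping genes may be shared or lost.

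The test on deposited counts was run in R 4.3.3 with edgeR 4.0.16, using TMM scaling, filterByExpr, the quasi-likelihood test of genotype (two-sided) over all 15336 genes kept, Benjamini-Hochberg adjustment and a threshold of 0.05. Standard errors are the log2 fold change divided by the root of F. Of 24453 genes 19211 had a count. The biological coefficient of variation was 0.313. Steps were tested on simulated counts. FPKM values set levels of different genes beside each other. Alternatives were RLE and upper-quartile scaling, a fit without Rn45s, Malat1 and Lars2, DESeq2 1.42.0, limma-voom (limma 3.58.1), no filter or a 1 CPM filter, a block for the replicate number, limma-trend fits of log2(FPKM + 1) and log2(FPKM + 0.1) filtered at 0.5 FPKM in 2 libraries or on log2(FPKM + 1) unfiltered, a loess correction for GC content and length, and each library left out. With a library left out, the lone sample of its group is assumed to vary like the other group.

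The members, gene lists and tests were chosen with earlier results of these data known. Counts cover every member, and 1 of them is not reported by name here or drawn. Of other lists, at most 5 called genes by smallest p and the most abundant markers are named, and others are said to be chosen after their values were seen. Coordinates are from GENCODE M21 (mm10). Between replicates, chi-square divided by its degrees of freedom was 22.7 for 2KO-labelled and 28.7 for control libraries, above counting error. The labels do not say that replicates were separate embryos, so the spread behind the p-values may be technical.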

Additional observations from a re-analysis of the deposited data

How the results depend on the processing

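Over the 33 tested chains and 16 alternatives, 510 fold changes were computed: 440 kept their sign and side of the threshold, 20 lost a call, 24 gained one and 26 changed sign, each of the last in a chain that was not called. The 3 chains called higher and 2 called lower became 5 and 1 with upper-quartile scaling, 5 and 3 with DESeq2 or with no filter on low counts, 1 and 5 with the GC content and length correction, 2 and 0 on filtered log2(FPKM + 1), 1 and 0 on filtered log2(FPKM + 0.1), and 0 and 0 on unfiltered log2(FPKM + 1). With each library left out they ranged from 1 to 8 higher and from 0 to 4 lower. Over all genes, 1073 were higher and 754 lower; with no filter 1554 were higher and 1242 lower, and 588 were higher and 231 lower on filtered log2(FPKM + 1), 472 and 175 on filtered log2(FPKM + 0.1), and none on unfiltered log2(FPKM + 1), where limma called 0 genes with 3764 at an unadjusted p below 0.05. Of the calls made by the filtered FPKM fits, 71.8% and 73.0% were in the higher direction. With a library left out 839 to 1643 genes were higher and 537 to 1104 lower. The cause of these shifts was not tested.

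Signs turned with the GC content and length correction for Itga3 (log2 fold change -0.20), Itga7 (-0.23), Itgb1 (0.0507), Lama2 (-0.25) and Lama5 (-0.29). With upper-quartile scaling Itgb1 was at 0.00072 and Lamc1 at 0.0022. In the 3 fits on FPKM Itgb1 was at 0.14 and Lamc1 at 0.00983, 0.0100461 and 0.00983, and Itgae was at 0.086 without a filter. With each library left out in turn, the range crossed 0 for Itga2b (-0.75 to 0.0796), Itga7 (-0.25 to 0.48), Itgae (-1.35 to 0.11), Itgal (-0.20 to 2.78), Itgb1 (-0.14 to 0.0836), Lama2 (-0.35 to 0.72), Lama4 (-1.19 to 0.21) and Lamc1 (-0.20 to 0.16). Fits on FPKM also ended the call of Lamb3, as did upper-quartile scaling (adjusted p = 0.0524).

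With counts per kilobase of annotated exon in place of FPKM, means in 2KO-labelled libraries and control were 1.56 and 0.775 for Lama5 over Lama3. The share of basal chains in integrin was then 92.1% and 95.5%. No direction between groups changed.

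Same-numbered replicates did not deviate together across genes as a whole (correlation -0.0022). A single correlation over all genes cannot exclude a pairing that touches only some of them. With the replicate number as a block 3 chains were higher and 3 lower, Lama3 being the added one (adjusted p = 0.0391). Over all genes, 1156 were then higher and 880.0 lower.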
